A study of Mus musculus with 6 samples.

Results

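Fc receptors bind the constant part of antibodies, and 10 genes of this family and its Fc receptor-like branch were followed in sorted peritoneal B1a cells: Fcgr1, Fcgr2b, Fcgr3, Fcgr4, Fcer1g, Fcer2a, Fcrla, Fcrl1, Fcrl5 and Faim3, the older name of Fcmr. They were chosen by gene name among the probes of a 1-colour Agilent mouse array, which gave 11 probes of 55681 and 10 gene names of 36163 (Fcrl5 had 2 probes). RNA came from B1a cells of the peritoneal cavity, sorted by surface markers that included CD11b and CD5, of female mice aged 7 weeks on a C57Bl/6 background. The knockout group was p40-/-IL-2Rα-/- (p40-/- CD25-/-), a mouse that develops autoimmune cholangitis and serves as a model of primary biliary cholangitis. The control group was p40-/-IL-2Rα+/- littermates (p40-/- CD25+/-), so both groups lacked p40, the subunit shared by IL-12 and IL-23, and the controls kept 1 copy of the IL-2 receptor α chain. There were 3 arrays in each group, each from cells of at least 3 mice. The comparison asked which transcripts of B1a cells differ between the 2 genotypes.

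In B cells the main IgG receptor is FcγRIIB (Fcgr2b), an inhibitory receptor that dampens the B cell receptor when both are bound by the same immune complex. The activating IgG receptors Fcgr1, Fcgr3 and Fcgr4 are best known from macrophages, granulocytes and NK cells, and reach the surface with the common γ chain, Fcer1g, whose ITAM motif recruits Syk. B cells further carry CD23 (Fcer2a), which binds IgE and is low on B1 cells, the IgM receptor (Faim3), and the Fc receptor-like proteins, of which Fcrl1 and Fcrl5 are surface coreceptors and Fcrla stays inside the cell. B1a cells are innate-like B cells that make much of the natural IgM.

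All values are log2 levels relative to the 75th percentile of their own array, so 0 is the 75th percentile, and levels of different probes are not compared. All 6 arrays lay on 1 slide. The 75th percentile of the raw signal was 252 to 272 units on the control arrays and 66.5 to 162 on the knockout arrays, lowest on knockout 2, and 47.2% to 50.6% against 39.7% to 45.9% of spots were well above background. Il2ra, the deleted gene, read 1.62, 1.13 and 1.35 in the controls and -0.31, -0.59 and 0.86 in the knockouts, a difference of -1.38 with no overlap, but still above background in the knockouts. Il12b, which encodes p40, differed by -0.022; the place of either probe relative to the deletion is not given in the sources used here. Cd5 and Itgam, which encode CD5 and CD11b, exceeded background clearly on each of the 6 arrays. The labels do not say whether the samples were separate pools of mice, so p-values measure the spread between these samples. In bulk RNA, fewer cells of a type and less RNA per cell cannot be told apart.

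No Fc receptor or Fc receptor-like probe passed either threshold for a change. Against 2-fold with an unadjusted p of at most 0.05, 0 of the 11 member probes passed, where 3.63% of the 24751 tested probes did. Against an adjusted p under 0.05, 0 of 11 passed with limma, where 0.0808% of all tested probes did. That count was 0 to 5 over the alternatives. It was 5 with normexp background correction and 75th percentile scaling together, which called 37.7% of all tested probes. At an unadjusted p of at most 0.05 limma gave 3 of 11 (Fcgr4, Fcrl5 and Fcer2a), against 24.5% of all tested probes. The 2 genotypes did not overlap at 2 member probes that were higher in the knockouts (Fcgr4 and the first Fcrl5 probe), against 15.6% of all tested probes, and at 2 that were lower (Fcgr2b and Fcrla), against 19.6%. The median difference was -0.060 over the 11 member probes and -0.090 over all tested probes.

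**Figure D1:**
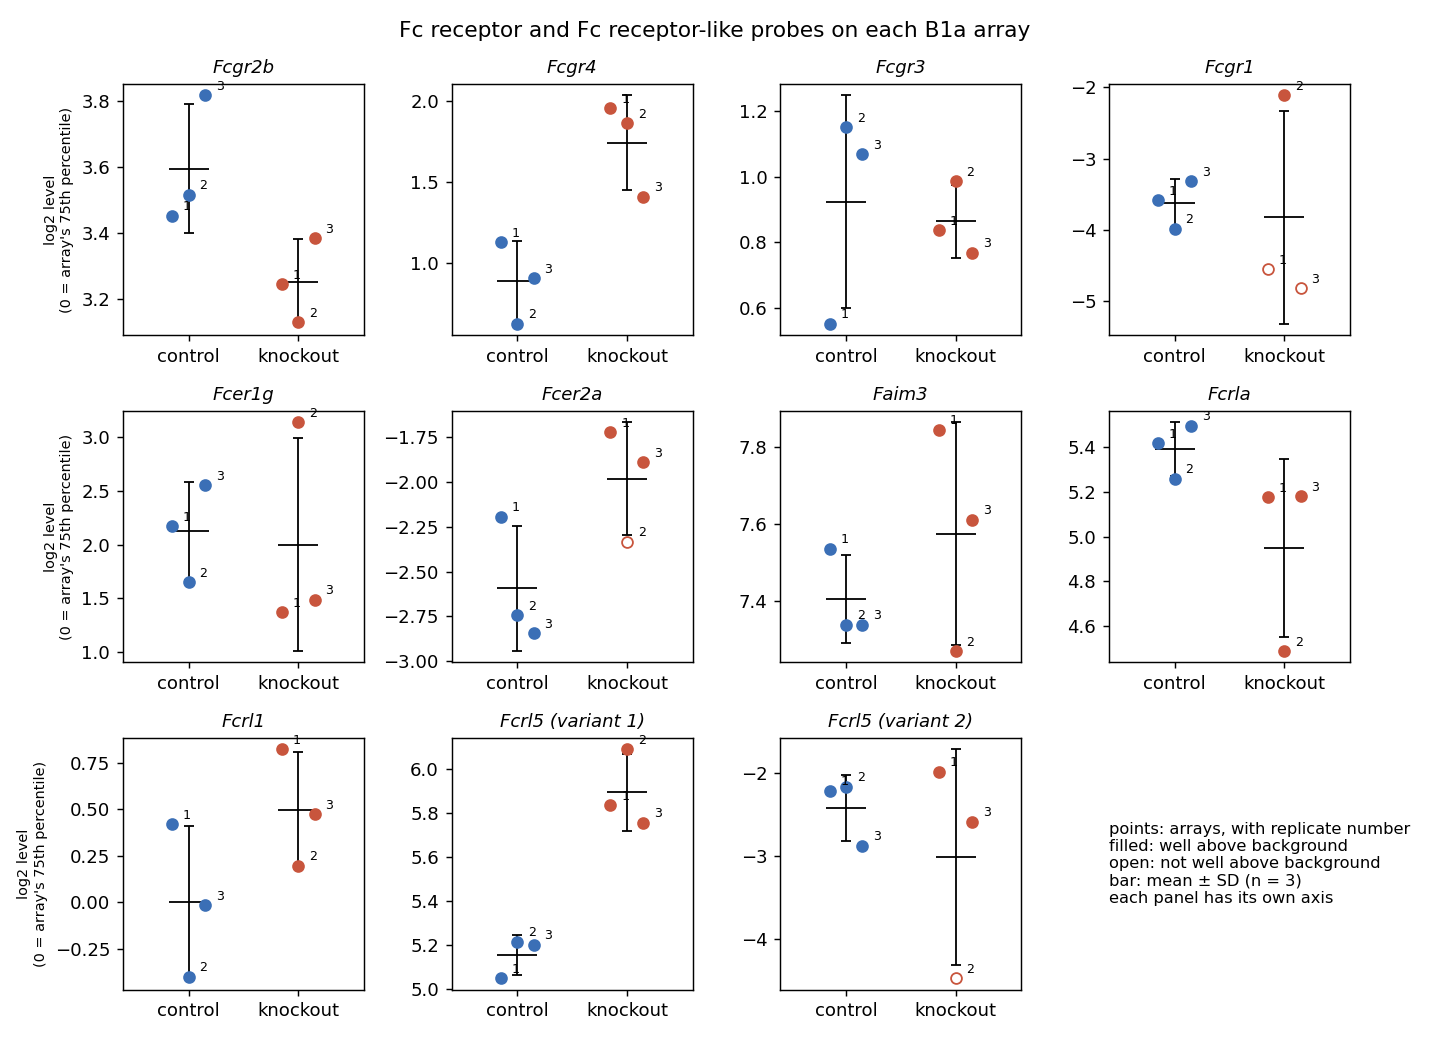
Log2 level of each member probe on each array (y axis, 0 is the array's 75th percentile, own scale per panel) by genotype, with points numbered by replicate, open where not well above background, and bars for the mean ± SD (n = 3). The genotypes do not overlap in the panels of Fcgr2b, Fcgr4, Fcrla and the first Fcrl5 probe, and knockout 2 stands apart from the other knockout arrays for Fcgr1, Fcer1g, Fcrla and the second Fcrl5 probe.

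Fcgr2b, the inhibitory IgG receptor, was read by a probe at chr1:172890988-172891047 (mm9, minus strand), printed 10 times on each array. Its level was 3.45, 3.52 and 3.82 in the controls and 3.25, 3.13 and 3.39 in the knockouts. The 3 knockout values all lay under the lowest control, by a small step. The mean was 3.60 ± 0.20 in controls and 3.25 ± 0.13 in knockouts (SD, n = 3), a difference of -0.34 (95% interval -0.73 to 0.042; limma adjusted p = 0.236). Its size depended on the normalization, with -0.15 under quantile normalization, -0.16 in the deposited values, -0.14 with normexp and quantile normalization and -0.61 with normexp and 75th percentile scaling. Between spots of the same array the SD was 0.016 to 0.030, so the spread between arrays within a genotype was several times that of the printing and reading. The probe is a 60-base oligo with no more than 6 bases in a row in common with the Fcgr3 probe. Binding of transcripts of the closely related Fcgr3 was not tested.

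Fcgr4, an activating receptor for IgG2a and IgG2b known from macrophages and granulocytes, had the largest difference among the members. Its probe lies at chr1:172959738-172959797 (mm9, plus strand). The controls read 1.13, 0.63 and 0.91, and the knockouts 1.96, 1.86 and 1.41. All 3 knockout arrays were above all 3 controls, knockout 3 least so. The difference was 0.86 ± 0.21 (SE; 95% interval 0.36 to 1.35), or 1.81-fold, with an unadjusted p of 0.00428 and an adjusted p of 0.107 by limma. Leaving out knockout 3 made it 1.02 and brought it past the 2-fold thresholds; over all alternatives the difference was 0.56 to 1.02 and the adjusted p 0.0314 to 0.324.

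Within an array, Fcgr4 minus Fcgr2b does not depend on the scaling. This log2 difference was -2.32, -2.89 and -2.91 in the controls and -1.29, -1.27 and -1.97 in the knockouts. The gap between the activating and the inhibitory receptor's probes was narrower on each knockout array than on any control array, by 1.20 on average, a 2.30-fold shift. The pair was chosen after the values were seen, so the shift is a description and has no test, and it says nothing of which receptor had more RNA. A second pair, the first Fcrl5 probe minus Fcrla, shifted by 1.18 on average, or 2.27-fold, and is likewise a description.

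The low-affinity receptor Fcgr3, known from macrophages and NK cells, showed no separation. Its probe, at chr1:172984129-172984188 (mm9, minus strand), read 0.55, 1.15 and 1.07 in the controls and 0.84, 0.99 and 0.77 in the knockouts. The knockout values lay within the range of the controls. The difference was -0.060 (95% interval -0.52 to 0.40; limma adjusted p = 0.857), an interval that leaves out a 2-fold change either way, and its sign turned under quantile normalization.

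Fcgr1, the high-affinity IgG receptor of macrophages and dendritic cells, was close to background. At chr3:96086839-96086898 (mm9, minus strand) its probe read -3.58, -3.98 and -3.31 in the controls and -4.54, -2.11 and -4.82 in the knockouts. It was well above background on all controls, but among the knockouts on knockout 2 alone. The difference was -0.20 (95% interval -1.76 to 1.36; limma adjusted p = 0.859). Without knockout 2 the difference was -1.06 and passed the 2-fold thresholds, but both remaining knockout values were then not well above background, so the size of that difference is not measured. The sign turned to 0.16 without knockout 1, 0.30 without knockout 3 and 0.57 with normexp and 75th percentile scaling (adjusted p = 0.0424).

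Fcer1g, the γ chain that the activating receptors need, had a like order of the arrays. Its probe at chr1:173159794-173159853 (mm9, minus strand) read 2.17, 1.65 and 2.55 in the controls and 1.37, 3.14 and 1.49 in the knockouts. Knockout 2 was above all other arrays, and knockouts 1 and 3 were below all controls. The mean difference was -0.13 (95% interval -1.25 to 1.00; limma adjusted p = 0.878), and -0.69 without knockout 2. Fcgr4, whose protein pairs with this chain, was above all controls on all 3 knockout arrays, both where Fcer1g was lowest (knockouts 1 and 3) and where it was highest (knockout 2).

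Of the 10 members 4, the 3 activating receptor genes and Fcrl1, held the letters CTTCCTC, or GAGGAAG on the other strand, in the 300-base promoter window of RefSeq (GRCm38.p6, 250 bases before to 50 after the annotated start). These letters resemble the sites of PU.1 and related ETS factors of myeloid and B cells, and are in 5 of the 13 windows of the members, since some genes have several starts, and in 13.6% of all 32851 RefSeq mouse promoter windows. The stretches are shown because Fcgr1, Fcgr3 and Fcgr4 share the letters close to their start and yet had unlike patterns over the arrays. All 10 members matched a RefSeq promoter, Faim3 through Fcmr. The motif, in capitals, begins at position -56 relative to the start in Fcgr1 (chr3:96294007-96294036, minus strand), at -7 in Fcgr3 (chr1:171059392-171059421, minus strand) and -23 in Fcgr4 (chr1:171018892-171018921, plus strand):
Fcgr1: atggcaacttcCTTCCTCttttctaatctt
Fcgr3: gagtccatttcCTTCCTCtttttgtagttc
Fcgr4: aaggctatttaCTTCCTCtcttctagtcaa

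Other motifs, searched on both strands, were sought as well. TTCNNNGAA, the letters of the interferon-γ activated site bound by STAT factors, was in Fcgr1 alone of the members and in 8.3% of all windows (chr3:96294059-96294088, position -109). GAAA followed after any 2 bases by a second GAAA, letters like those that interferon regulatory factors bind, was in Fcgr4 (chr1:171018843-171018872, position -73) and Fcrla (chr1:170927756-170927785, position -192) and in 3.44% of all windows. No match of one motif overlapped a match of another in a member. A match is a run of letters and not a binding site, and the motifs were chosen after the promoters had been read:
Fcgr1: aaggatgtatTTCCCAGAAaagggaacagt
Fcgr4: ggtgtttctgGAAAAGGAAActggtgagat
Fcrla: agctcaacaaGAAAAAGAAAaaaattaaca

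Fcer2a (CD23), the low-affinity IgE receptor that is prominent on follicular B2 cells, was dim in these B1a cells. Its probe at chr8:3682343-3682402 (mm9, minus strand) read -2.19, -2.74 and -2.84 in the controls and -1.72, -2.33 and -1.89 in the knockouts. Knockout 2, the lowest knockout value and not well above background, overlapped the controls. The difference was 0.61 (95% interval 0.050 to 1.17; limma unadjusted p = 0.0366, adjusted p = 0.182). It stayed positive under all 18 alternatives that measured it, from 0.085 to 0.82. Without a filter on dim probes the median difference over all probes was 0.55, so dim probes as a whole leaned the same way. Of 5 tested B2 cell markers 0 passed the 2-fold thresholds, and the summed level of the list was 217 to 252 times the 75th percentile in controls and 213 to 278 in knockouts. In that list Ccr7, a lymph node homing receptor, differed by 0.65 and Cr2, the complement receptor CD21, by 0.24.

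Faim3, the IgM receptor, was bright on every array. At chr1:132777256-132777315 (mm9, plus strand) it read 7.54, 7.34 and 7.34 in the controls and 7.85, 7.27 and 7.61 in the knockouts. The ranges overlapped, and knockout 2 had the lowest value of the 6. The difference was 0.17 (95% interval -0.26 to 0.61; limma adjusted p = 0.56), and single arrays set its size: it was 0.036 without knockout 1 and 0.32 without knockout 2. The processing mattered too. The difference was 0.046 under quantile normalization, and its sign turned to -0.17 only when normexp background correction was joined to 75th percentile scaling.

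Fcrla, the Fc receptor-like protein kept inside B cells, was lower on each knockout array. Its probe at chr1:172848103-172848162 (mm9, minus strand) read 5.42, 5.26 and 5.50 in the controls and 5.18, 4.49 and 5.18 in the knockouts. Knockouts 1 and 3 were just below the lowest control and knockout 2 well below. The difference was -0.44 (95% interval -0.96 to 0.075; limma adjusted p = 0.25), and -0.21 without knockout 2, so much of its size rested on that array. It was -0.26 under quantile normalization and -0.77 with normexp and 75th percentile scaling.

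Fcrl1, an activating coreceptor of B cells, overlapped between the genotypes. At chr3:87195973-87196032 (mm9, plus strand) it read 0.42, -0.40 and -0.016 in the controls and 0.82, 0.20 and 0.47 in the knockouts. Control 1 reached above knockout 2. The difference was 0.50 (95% interval -0.10 to 1.09; limma adjusted p = 0.262), positive in all 19 alternatives, at 0.295 without control 2 and up to 0.70 without control 1.

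Fcrl5, a coreceptor with activating and inhibitory motifs that is a mark of B1 and marginal zone B cells, was read at 2 places, 33.2 kb apart on the plus strand of chromosome 3. The first probe, for transcript variant 1 (NM_183222), ends at chr3:87271416-87271445, and the second, for variant 2 (NM_001113238), at chr3:87304571-87304600 (mm9). The last 30 bases of both are shown because the probes were designed for different transcripts and did not read alike. Capitals mark ATTAAA, one of 2 hexamers of polyadenylation signals searched on the probe's own strand (AATAAA or ATTAAA), which 4 of the 11 member probes hold and 13.7% of all array probes:
Fcrl5 variant 1: catttgccATTAAAcatttgggctttgatc
Fcrl5 variant 2: ccagacgttggtacaaaagagtgggtacgg

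The variant 1 probe read 5.05, 5.21 and 5.20 in the controls and 5.84, 6.09 and 5.76 in the knockouts. The 3 knockouts lay clear of the controls, with small spread in both groups. The mean was 5.16 ± 0.092 in controls and 5.89 ± 0.17 in knockouts (SD, n = 3), a difference of 0.74 ± 0.16 (SE), or 1.67-fold. Its unadjusted p of 0.00181 was the smallest of the members, and the adjusted p of 0.0944 by limma missed the threshold. The adjusted p was between 0.0184 and 0.317 over the alternatives, and the difference kept its sign in all 19 of them, from 0.44 to 0.89.

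The variant 2 probe was dim and showed another picture. It read -2.21, -2.17 and -2.88 in the controls and -1.99, -4.47 and -2.59 in the knockouts. Knockout 2 was not well above background, and the other knockouts lay within or just above the control range. The difference was -0.60 (95% interval -1.98 to 0.79; limma adjusted p = 0.522), and 0.13 without knockout 2. With that array the probes of Fcrl5 disagreed in sign and without it they did not, and the difference between them was not tested.

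**Figure D2:**
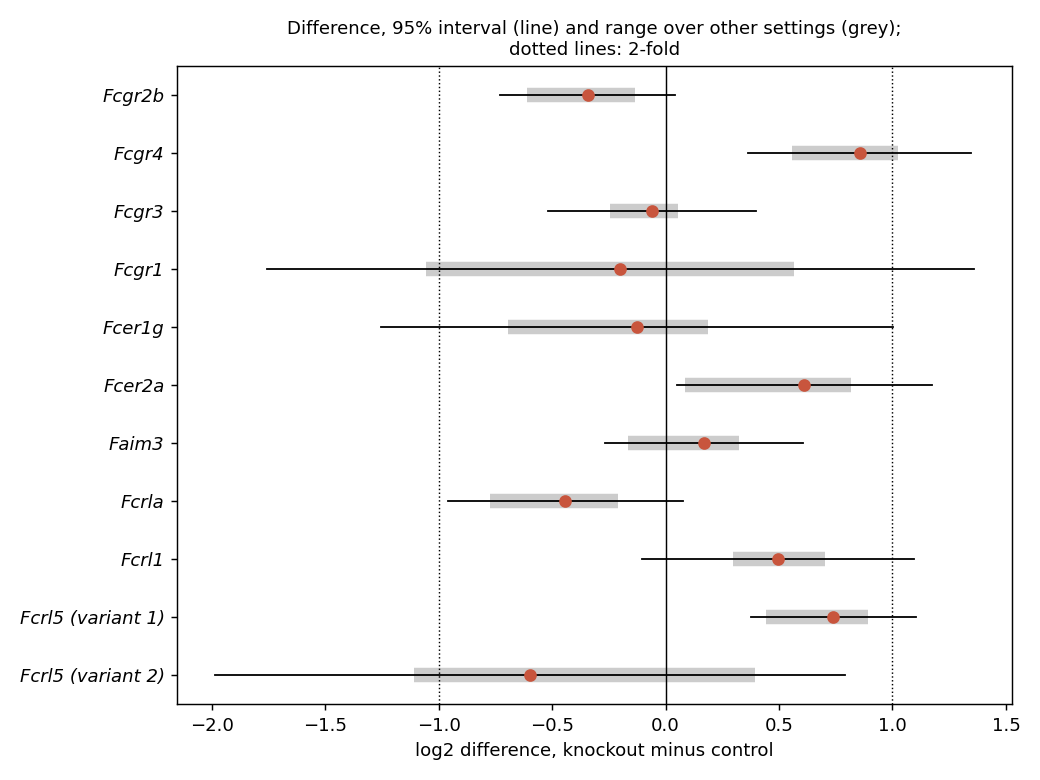
Log2 difference, knockout minus control, of each member probe (point), its 95% interval (line) and its range over the other settings (grey bar); dotted lines mark 2-fold. The intervals of Fcgr4, the Fcrl5 variant 1 probe and Fcer2a leave out 0, and the grey bars of Fcgr1, Fcgr3, Fcer1g, Faim3 and the Fcrl5 variant 2 probe cross it.

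Of the 10 members, 5 lie together on chromosome 1. From the Fcgr2b probe, those of the other genes lie at -42.9 kb (Fcrla), 68.8 kb (Fcgr4), 93.1 kb (Fcgr3) and 268.8 kb (Fcer1g). Fcrla and Fcgr2b had differences of -0.44 and -0.34, and Fcgr4 of 0.86, between Fcgr2b and the overlapping values of Fcgr3. Fcrlb, beside Fcrla at -53.6 kb, was well above background on no array.

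**Figure D3:**
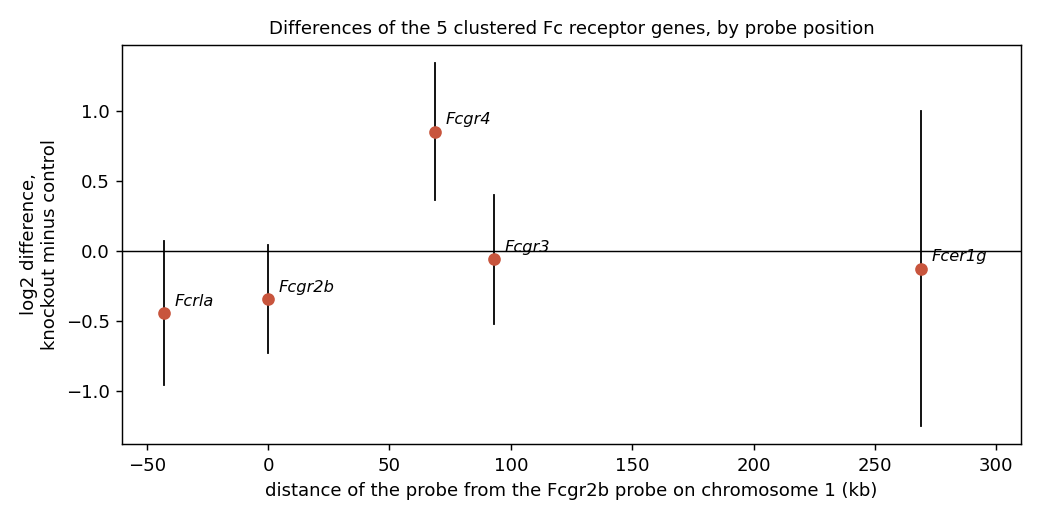
Log2 difference, knockout minus control (y axis), of the 5 members clustered on chromosome 1 against the distance of each probe from that of Fcgr2b in kb (x axis), with 95% intervals as lines. Fcgr4, at 68.8 kb, is the only one of the 5 whose interval leaves out 0.

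The other genes of these pathways did not pass the 2-fold thresholds either, where 3.54% of 18252 genes did by their brightest tested probe. Of 9 other Fc receptors on the array, 3 could be tested and 0 passed. Pigr, which carries IgA and IgM across epithelia, differed by -0.38 at its brightest probe and by -0.24 at the other; the array places the first on chromosome 13 and the second on chromosome 1, where Pigr lies, so what the first reads is uncertain. Trim21, the receptor for antibody in the cytosol, differed by -0.15 and Fcgrt, the neonatal Fc receptor, by -0.14. Of the IgE receptor subunits, Ms4a2 was well above background on no array, and Fcer1a on 2 controls. Of 18 tested genes of ITAM signalling, 0 passed and the median difference was -0.12, equal to that of all genes (-0.12). At an unadjusted p of at most 0.05 limma gave 6 of the 18, against 24.4% of all genes. The largest were Lat, a T cell and mast cell adaptor, at 1.19 (limma adjusted p = 0.311), which was dim and not well above background on control 3, and Vav3, an exchange factor, at 0.75 (adjusted p = 0.184). Tyrobp, the other γ-like ITAM chain of myeloid cells, differed by -0.48 (adjusted p = 0.128).

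The inhibitory branch that Fcgr2b feeds into held the smallest adjusted p of these 4 lists. Of 13 tested genes 0 passed the thresholds, 2 had an unadjusted p of at most 0.05 by limma, against 24.4% of all genes, and the median was -0.22, against -0.12 over all genes. Dok2, an adaptor that restrains Ras signalling, read 1.81, 1.65 and 1.20 in the controls and 0.59, 0.78 and 0.71 in the knockouts. No knockout array reached the controls, and the difference was -0.86 (limma adjusted p = 0.102). Inppl1, the lipid phosphatase SHIP2, differed by -0.62 (adjusted p = 0.14), while Inpp5d, the phosphatase SHIP1 that FcγRIIB recruits in B cells, differed by -0.18 (adjusted p = 0.473). Of the 13 differences 10 were negative and 3 positive, with Cbl (0.35) and Dok3 (0.26) higher in the knockouts without overlap. Of 6 tested genes listed beside CD23, as possible partners or regulators, 0 passed. Adam10, the protease that sheds CD23, differed by -0.35 and Cr1l, a complement regulator, by -0.33.

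Since activating Fc receptors are typical of myeloid and NK cells, markers of other cell types were read beside them. Of 17 tested macrophage markers, 2 passed the 2-fold thresholds lower in the knockouts (1.28% of all genes did): Lyz2, a lysozyme whose near-identical copy Lyz1 may share its probe, differed by -1.08 and Mrc1, the mannose receptor, by -1.08. The summed level of the 21 macrophage markers on the array was 114 to 193 times the 75th percentile in controls and 103 to 156 in knockouts. Icam2 made up the largest part of each sum, at 6.15 to 6.45 in controls and 5.99 to 6.16 in knockouts. Cd163 was well above background on no array. Of the 17 tested markers 16, Mrc1 being the exception, had their highest knockout value on knockout 2, the array where Fcer1g and Fcgr1 were highest. Marco, a scavenger receptor, read 1.64, 4.31 and 1.68 in the knockouts. Among the controls 9 of the 17 were at their highest of all arrays on control 1 and 7 at their lowest of all on control 3, the control where Fcer1g and Fcgr1 were highest. Fcgr4 was highest on knockout 1, where 7 of the 17 markers were at their lowest. The part of these markers in the values of the Fc receptors was not tested.

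**Figure D4:**
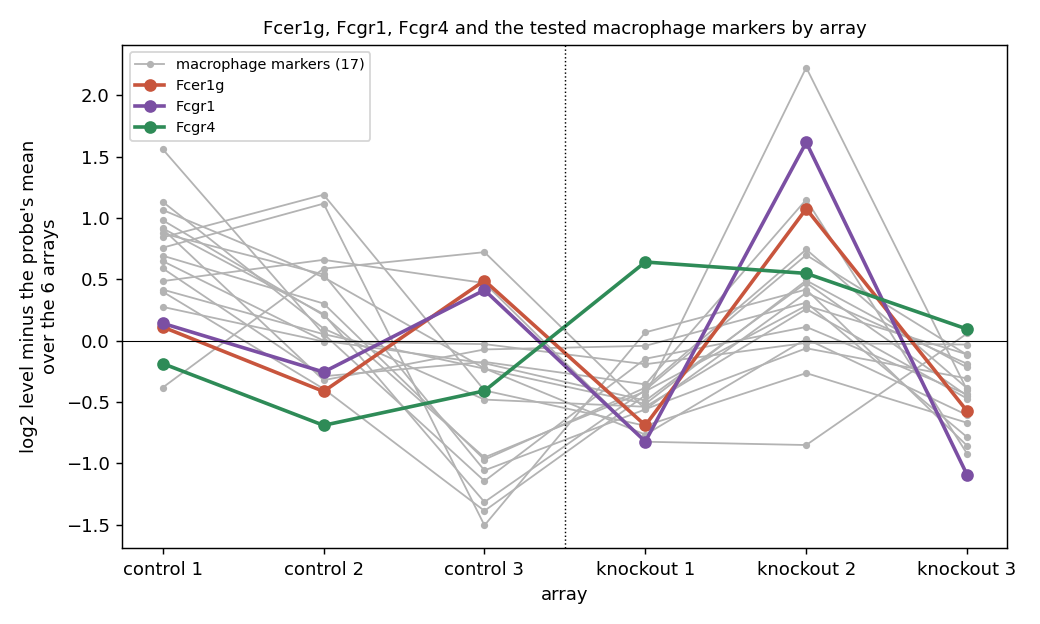
Log2 level minus the probe's own mean over the 6 arrays (y axis) by array (x axis), for Fcer1g, Fcgr1, Fcgr4 and the 17 tested macrophage markers (grey). Among the knockout arrays, Fcer1g, Fcgr1 and 16 of the 17 markers are highest on knockout 2, while 9 of the markers are highest of all on control 1, and Fcgr4 is above its mean on all 3 knockout arrays and below it on all 3 control arrays.

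Among NK cell markers 1 of 3 tested was called higher (Nkg7, 1.00; 2.26% of all genes were called higher), with a summed level, again in multiples of the 75th percentile, of 2.43 to 2.52 in controls and 3.12 to 5.48 in knockouts, while Ncr1, Klrb1c, Klrd1, Klre1, Klra8 and Klrk1 were well above background on no array. Of 3 tested granulocyte markers 1 was called higher (Camp, 1.13), with sums of 109 to 118 and 116 to 224, the sum being carried by Csf3r, and Cxcr2, Ngp and Ltf on no array. Of 8 tested T cell markers 2 were called higher (Thy1 at 2.13 and Cd3d at 1.41), and Trat1 and Themis were on no array. The T cell sums were 9.37 to 15.3 and 14.2 to 18.1, with Lck as their largest part. Of 4 tested mast cell and basophil markers 1 was called lower (Mcpt4), with sums of 1.14 to 4.75 and 1.62 to 2.05, and Ms4a2 and Mcpt8 on no array. Mcpt4 was well above background on 3 controls but on 1 knockout array, so the size of its difference is not measured. Dendritic cell markers gave 0 calls of 2 tested (Clec10a -1.62, not well above background on knockout 1, and Siglech 0.50), with sums of 61.6 to 66.8 and 72.2 to 128 carried by Siglech, and Clec9a and Xcr1 on no array. Plasma cell markers gave 1 lower call of 5 (Igj, the J chain, -1.92), with sums of 68.6 to 75.6 and 46.7 to 59.5, and Tnfrsf17 on no array. B lineage markers gave 1 higher call of 10 (Cd72, an inhibitory receptor, 1.42), with sums of 1320 to 1340 and 1320 to 1570. B1a markers gave 0 of 7, with sums of 283 to 339 and 279 to 282. Of these 3 were higher (Itgam 0.79 and Bhlhe41 0.55 the most) and 4 lower (Tnfrsf13b and Ctla4 the most, both at -0.44), with a median of -0.18. The called T cell, NK cell, granulocyte and B lineage markers had the sign of Fcgr4, as did 65.5% of all probes past the 2-fold thresholds. The part of these markers in the value of Fcgr4 was not tested.

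No member passed the thresholds, so the genes most like a member were sought for Fcgr4, the member with the largest difference. Among 10860 genes well above background on all 6 arrays, the highest Pearson correlations with Fcgr4 over the 6 arrays were those of 5830409B07Rik (0.99), Pik3ap1 (0.99), an adaptor of PI3K in B cells, and Gm4759 (0.99). They differed between the genotypes by 0.71, 0.62 and 0.64, and these 6 points share the genotype split.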

How the data were processed

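RNA of 6 sorted B1a samples was hybridised to 1-colour Cy3 arrays, and the authors extracted spot intensities with Agilent Feature Extraction 10.7.1.1 (per the file headers; probe coordinates mm9). The authors' deposited table holds log2 values whose sorted columns differ by at most 0.000545, as after quantile normalization; it served as an alternative. The intensity used was the processed signal: control spots and outlier spots were left out, log2 was taken, each array's 75th percentile was subtracted, and spots of a probe were averaged. Probes well above background on all 3 arrays of a genotype were tested (24751) with limma 3.58.1 in R 4.3.3, and p-values were adjusted by Benjamini-Hochberg over all of them. The thresholds were 2-fold, as in the methods, with p at most 0.05, as in the supplement, or an adjusted p under 0.05. The number of arrays limits the precision. The fit was tested on simulated data. Every member and probe was named; of each gene list, genes past the 2-fold thresholds by their brightest tested probe were named, or the 2 with the largest difference. Members and lists were chosen with earlier results of these data known. Promoters came from RefSeq (GRCm38.p6), and their coordinates are not on the build of the probes. In the sort, cells were first incubated with antibody to CD16/CD32, the products of Fcgr3 and Fcgr2b. Alternatives covered scaling, background correction, filters, outliers, the test, array weights, a replicate block and leaving out each array. 1 further marker of the sort and 1 further promoter stretch are not reported here.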

Additional observations from a re-analysis of the deposited data

How the results depend on the processing

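Fcgr2b, Fcrla, Fcgr4, Fcrl1, Fcer2a and the variant 1 probe of Fcrl5 kept the sign of their difference under every alternative that measured them, though not its size: the ranges were -0.61 to -0.14, -0.77 to -0.21, 0.56 to 1.02, 0.295 to 0.70, 0.085 to 0.82 and 0.44 to 0.89 in that order. Member probes with an adjusted p under 0.05 numbered 5 after normexp background correction with 75th percentile scaling (Fcgr2b, Fcrla, Fcgr4, Fcgr1 and Fcer2a), a setting that called 9327 of all tested probes, or 37.7%; 1 after normexp with quantile normalization (Fcrl5 variant 1; 55 of all); 2 with trended, robust variance (Fcgr4 and Fcrl5 variant 1; 980 of all, 3.96%); and 1 with array weights (Fcrl5 variant 1; 688 of all, 2.78%). The cause was not tested. Leaving out 1 array gave 0 to 1 member probes past the 2-fold thresholds (Fcgr1 without knockout 2, against knockout values not well above background, and Fcgr4 without knockout 3).

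Of all tested probes, 899 passed the 2-fold thresholds, 65.5% of them higher in the knockouts. That share was 44.4% under quantile normalization, 43.2% in the deposited log2 values, 78.9% with scaling on the median of detected probes, 84.4% over probes above background on all 6 arrays, 81.2% after normexp with quantile normalization and 54.7% with array weights. The count was 233 after normexp with 75th percentile scaling, 192 after normexp with quantile normalization, 591 above background on all 6 arrays, 18975 without a filter on dim probes (98.2% higher, with a median difference of 0.55 over all probes), 611 by the methods' t-test and 850 to 1581 leaving out 1 array. The adjusted count of 20 became 6 under quantile normalization and in the deposited values, 8 with the detected median, 2 without a filter, 94 above background on all 6 arrays, 7 with 1 probe per gene, 1 by the methods' t-test after Benjamini-Hochberg, and 2 to 136 leaving out 1 array.

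Signs turned as follows. Fcer1g was 0.033 under quantile normalization, 0.056 with normexp and quantile, 0.021 in the deposited values and -0.69 to 0.19 leaving out 1 array. Fcgr3 was 0.027 under quantile normalization, 0.035 with the detected median, 0.016 in the deposited values and -0.25 to 0.054 leaving out 1 array. With normexp and 75th percentile scaling, Faim3 was -0.17, Fcgr1 0.57 and Fcrl5 variant 2 0.40; the latter was 0.091 with array weights. Leaving out 1 array gave -1.06 to 0.30 for Fcgr1 and -1.11 to 0.13 for Fcrl5 variant 2.

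The labels number the samples 1 to 3 in both genotypes. Deviations from the group means correlated at 0.175, 0.0572 and 0.12 for the 3 same-numbered pairs, so they were not taken as paired, although each array correlated best with its own number. With the replicate block, 902 probes were called at 2-fold and 1 by its adjusted p, and no member probe (0 of 11) by either. Fcgr1, Fcer2a and the variant 2 probe of Fcrl5 were not well above background on 1 or 2 of the knockout arrays, which limits their differences. The part of the dimmer signal of those arrays was not tested.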

Other observations

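Between Fcgr2b and Fcgr4 on chromosome 1, the array has 2 adjoining probes for a predicted non-coding transcript, ENSMUST00000097468, which was singled out after its values were seen. The first, at chr1:172916478-172916537 (mm9, plus strand), read -1.33, -2.00 and -1.80 in the controls and -2.51, -3.22 and -2.47 in the knockouts. The second, at chr1:172916538-172916597, read -2.72, -2.50 and -1.88 in the controls and -3.67, -3.74 and -2.95 in the knockouts. All knockout values lay below all control values at both probes. Both were well above background on all 3 controls, but the first on 2 knockout arrays and the second on 1, so no size or test is given. The probes read the strand opposite to Fcgr2b, 25.5 kb and 25.6 kb from its probe.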
